A study of Homo sapiens with 6 samples.

Results

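The aminoacyl-tRNA synthetases were followed as a family of 38 genes, chosen by name, with earlier results of these data known. They were 19 genes of cytosolic enzymes, 16 of mitochondrial enzymes (symbols ending in 2) and 3 of scaffold proteins that hold several cytosolic enzymes together. They were set against the 10642 genes that could be tested on the arrays, of the 20037 genes with a named probe. HCT116 is a human colorectal carcinoma cell line. The PTTG1+/+ parent line (WT) was compared with a PTTG1-/- derivative (labelled PTTGKO), in which PTTG1 had been removed by homologous recombination, with 3 samples of each line. All 6 samples were grown under the same standard culture conditions and differed by genotype alone in the labels. PTTG1 encodes securin, which restrains separase until anaphase. Each line was a single source, so genotype and line coincide and their effects cannot be told apart, and no source says whether the 3 samples of a line were separate cultures. The p-values therefore measure the spread between these samples only, which may be technical.

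Each synthetase joins 1 kind of amino acid to the tRNAs that carry it, which is the step at which the genetic code is read into protein. The cytosolic enzymes serve the ribosomes of the cytosol, while the mitochondrial enzymes are encoded in the nucleus and imported to serve the ribosomes of the mitochondrion, and GARS1 and KARS1 are known to supply both places. Several cytosolic enzymes sit in the multisynthetase complex, built on the scaffold proteins AIMP1, AIMP2 and EEF1E1, and the others are not part of this complex. When amino acids run short, uncharged tRNA activates the kinase GCN2 (EIF2AK4), translation of the transcription factor ATF4 rises, and ATF4 is known to raise the transcription of many cytosolic synthetase genes together with genes of amino acid uptake and synthesis.

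RNA was measured on Illumina beadchips, where the brightness of a probe reports the transcripts that bind it. Levels are given as log2 intensity after background correction and quantile normalization. A difference is the log2 level in PTTG1-/- cells minus that in WT cells, tested with limma across all genes and adjusted by the Benjamini-Hochberg method. Of the 47310 probes, between 35.7% and 37.3% were above background on each array. The summed intensity lay between 14796418 and 16708425, highest on PTTG1-/- replicate 3. At 1 of its probes PTTG1 had a mean of 10.79 in WT cells and was not above background on any PTTG1-/- array. Its other probe was above background on all arrays, with a log2 difference of -0.91 (adjusted p = 0.00154, limma fitted to single probes). Among markers of colorectal epithelium 8 of 12 were tested, while CDX1, VIL1, LGALS4 and CLDN4 were not above background on any array. Of the 8 tested, CLDN7, CDH1 and EPCAM fell, with log2 differences of -0.70, -0.53 and -0.32, and none rose. This was 37.5% of the list, against 7.79% of all genes. In sign 4 of the 8 were below 0 and 4 above. KRT19 was higher on every PTTG1-/- array, by 0.24 on the log2 scale, and did not pass (limma adjusted p = 0.0522). The summed intensity of the epithelial list was 17664 to 18105 on the WT arrays and 16510 to 17184 on the PTTG1-/- arrays, without overlap. All 5 endothelial markers and 7 of 8 fibroblast markers were at background on every array. Of 8 blood cell markers 3 were tested, and PTPRC, CD3E and ITGAM were at background on every array. The summed intensity of the blood list was 371 to 397 on the WT arrays and 467 to 525 on the PTTG1-/- arrays. Of its tested genes CD68 was higher by 0.56 and HBA1 by 0.44 on the log2 scale, and CD14 differed by -0.03. The part of the epithelial or the blood list in the results below was not tested.

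Of the 38 genes 35 had at least 1 named probe, 40 probes in all, and 33 genes passed the filter on dim probes, 18 cytosolic and 15 mitochondrial. CARS1, AIMP2 and EEF1E1 were not analysed here since no probe of theirs is named in the platform annotation. WARS2 and AIMP1 had 1 probe each, which was not above background on any of the 6 arrays, so no scaffold protein was tested. FARSB, IARS1, MARS2 and VARS1 each had a further probe at background on all 6 arrays, and the other probe stands for the gene. WARS1 was the member read by more than 1 probe above background.

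Of the cytosolic synthetase genes 5 fell in PTTG1-/- cells, and none of the mitochondrial ones passed the test in either direction. The 5 genes, of 18 cytosolic ones tested (27.8%), were WARS1, MARS1, TARS1, GARS1 and AARS1, with log2 differences from -0.35 to -0.25. Over all genes tested, 7.79% fell and 9.58% rose at the same threshold, an adjusted p under 0.05. No cytosolic gene rose. In sign alone, 13 of 18 cytosolic and 9 of 15 mitochondrial genes were below 0, against 49.8% of all genes. In bulk RNA of this kind, fewer cells of a type and less RNA per cell cannot be told apart. At an unadjusted p under 0.05, 8 of 18 cytosolic genes were lower and none higher, and of 15 mitochondrial genes none was lower or higher, where 14.7% of all genes were lower and 16.9% higher. The falls were small, at most 1.28-fold, and the calls rested on few arrays. With a WT array left out (replicate 1, 2 or 3 in turn) 0, 1 and 2 cytosolic genes fell. With a PTTG1-/- array left out in the same order, 3, 0 and 5 did. The count was also 0 with no normalization between arrays, 1 with median scaling, 2 in a fit to single probes, 2 with the methods' t-test and 2 with the replicate number as a block. Of the 19 alternatives run, WARS1 passed in 14, MARS1 in 12, GARS1 and AARS1 in 9 each and TARS1 in 7. The sign of each of the 5 genes was below 0 in all 19, also where the call was lost.

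WARS1 encodes the cytosolic tryptophanyl-tRNA synthetase. Its log2 intensity was 10.25, 10.21 and 10.17 on the WT arrays and 9.96, 9.84 and 9.78 on the PTTG1-/- arrays, so the lines did not overlap. The fall was 1.28-fold (log2 difference -0.35, SE 0.08, adjusted p = 0.0155). The second WARS1 probe was read at 9.90, 9.83 and 9.84 in WT cells and at 9.61, 9.44 and 9.40 in PTTG1-/- cells. In a limma fit to single probes, where 5.88% of all probes fell, both WARS1 probes fell (adjusted p = 0.0251 and 0.0235). WARS1 is known as an interferon-induced gene. Of the 13 tested genes of an interferon list 9 rose and none fell, where 9.58% and 7.79% of all genes did. The log2 difference was 0.71 for IFI6, 0.60 for TAP1 and 0.96 for IFITM1. How the fall of WARS1 relates to this list was not tested.

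MARS1, the methionyl-tRNA synthetase, is the enzyme of the multisynthetase complex that fell. Its log2 intensity was 10.41, 10.20 and 10.35 on the WT arrays and 10.01, 9.98 and 9.96 on the PTTG1-/- arrays. All PTTG1-/- values were lower than all WT values, and the PTTG1-/- arrays lay close together (SD 0.02 against 0.11 in WT, n = 3 each). The log2 difference was -0.34 (SE 0.08, adjusted p = 0.0202).

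TARS1, the threonyl-tRNA synthetase, had a log2 intensity of 11.09, 11.23 and 11.09 on the WT arrays and of 10.68, 10.80 and 10.95 on the PTTG1-/- arrays. The lines did not overlap, and PTTG1-/- replicate 3 lay nearest to the WT arrays. TARS1 fell 1.26-fold (log2 difference -0.33, SE 0.09, adjusted p = 0.0374).

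GARS1, the glycyl-tRNA synthetase of cytosol and mitochondria, had a log2 intensity of 11.9998, 12.03 and 11.87 in WT cells and of 11.77, 11.61 and 11.58 in PTTG1-/- cells. The lines did not overlap, the lowest WT array being replicate 3. GARS1 fell 1.24-fold (log2 difference -0.31, SE 0.09, adjusted p = 0.0364).

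AARS1, the alanyl-tRNA synthetase, had a log2 intensity of 12.58, 12.67 and 12.59 in WT cells. On the PTTG1-/- arrays it was 12.35, 12.35 and 12.37, and the lines were well apart. AARS1 fell 1.19-fold, the smallest of the 5 falls (log2 difference -0.25, SE 0.07, adjusted p = 0.0393).

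**Figure D1:**
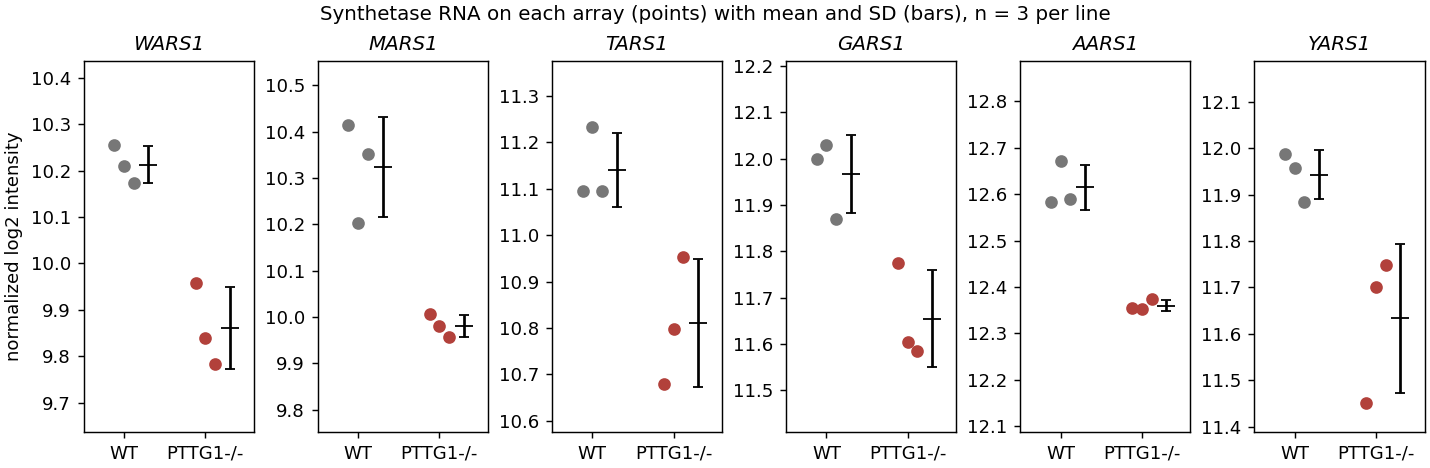
Normalized log2 intensity (vertical axes, each spanning the same width of 0.8) of the 5 synthetase genes that fell and of YARS1, the next in order, on each of the 3 WT (grey) and 3 PTTG1-/- (red) arrays, with mean and SD beside them. In each of the 6 panels all PTTG1-/- points lie below all WT points, for WARS1 at 9.78 to 9.96 against 10.17 to 10.25.

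YARS1, the tyrosyl-tRNA synthetase, just missed the threshold. It was read at 11.99, 11.96 and 11.88 on the WT arrays and at 11.45, 11.70 and 11.75 on the PTTG1-/- arrays, again without overlap. Its log2 difference was -0.31 (SE 0.09, adjusted p = 0.0527), as large as that of GARS1, with a wider spread among the PTTG1-/- arrays (SD 0.16, n = 3). It passed under 6 of the 19 alternatives, the authors' processed values among them (range of its adjusted p over the alternatives 0.00940 to 0.177).

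Another 3 cytosolic genes had a difference of over 0.15 in size and did not pass. IARS1, the isoleucyl-tRNA synthetase of the complex, was read at 10.93, 10.73 and 10.59 in WT cells and at 10.43, 10.46 and 10.63 in PTTG1-/- cells, so that PTTG1-/- replicate 3 overlapped the WT range (log2 difference -0.25, adjusted p = 0.136). NARS1, the asparaginyl-tRNA synthetase, was lower on every PTTG1-/- array (11.04, 10.98 and 11.15) than on any WT array (11.23, 11.33 and 11.17), with a log2 difference of -0.19 (adjusted p = 0.153). VARS1, the valyl-tRNA synthetase, differed by -0.17 on the log2 scale (adjusted p = 0.203), and its lines overlapped by a single array of each. QARS1, the glutaminyl-tRNA synthetase, was another gene without overlap, at 11.92 to 11.98 in WT cells and 11.86 to 11.90 in PTTG1-/- cells, but its difference was only -0.07 (95% interval -0.22 to 0.09, adjusted p = 0.574). In all, 8 of 18 cytosolic genes had every PTTG1-/- array below every WT array and none the reverse, where 16.7% and 19.5% of all genes did. An exact two-sided permutation test gives p = 0.1 for such a gene, the smallest that 3 arrays against 3 allow.

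The other 8 cytosolic genes had differences between -0.09 and 0.05. EPRS1, the bifunctional enzyme for glutamate and proline, had a log2 difference of 0.00 (95% interval -0.17 to 0.17), and RARS1 and LARS1, both of the complex, of 0.05 each (95% intervals -0.14 to 0.24 and -0.16 to 0.25). HARS1, the histidyl-tRNA synthetase, had a difference of 0.05, SARS1, the seryl-tRNA synthetase, of -0.09, and KARS1, the lysyl-tRNA synthetase, of -0.04. FARSA and FARSB, the subunits of the cytosolic phenylalanyl-tRNA synthetase, had differences of -0.05 and 0.03. Both subunits were read lower on PTTG1-/- replicate 3 than on the other PTTG1-/- arrays. FARSA was at 8.34, 8.31 and 7.85 on the PTTG1-/- arrays against 8.18 to 8.25 in WT cells, and FARSB at 12.29, 12.17 and 11.86 against 11.83 to 12.33. Without PTTG1-/- replicate 3 the FARSA difference was 0.11, and it did not pass.

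Set apart by place, the 7 enzymes of the multisynthetase complex included 1 that fell, MARS1, with a median log2 difference of -0.04. Of the 11 tested enzymes outside it, 4 fell, with a median of -0.19. By structural class, which groups the synthetases by the fold of their catalytic domain, 2 of 9 cytosolic class I enzymes (WARS1 and MARS1) and 3 of 9 class II enzymes (TARS1, GARS1 and AARS1) fell. The difference between these groups was not tested. Over all genes tested 7.79% fell, and the median was 0.00.

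**Figure D2:**
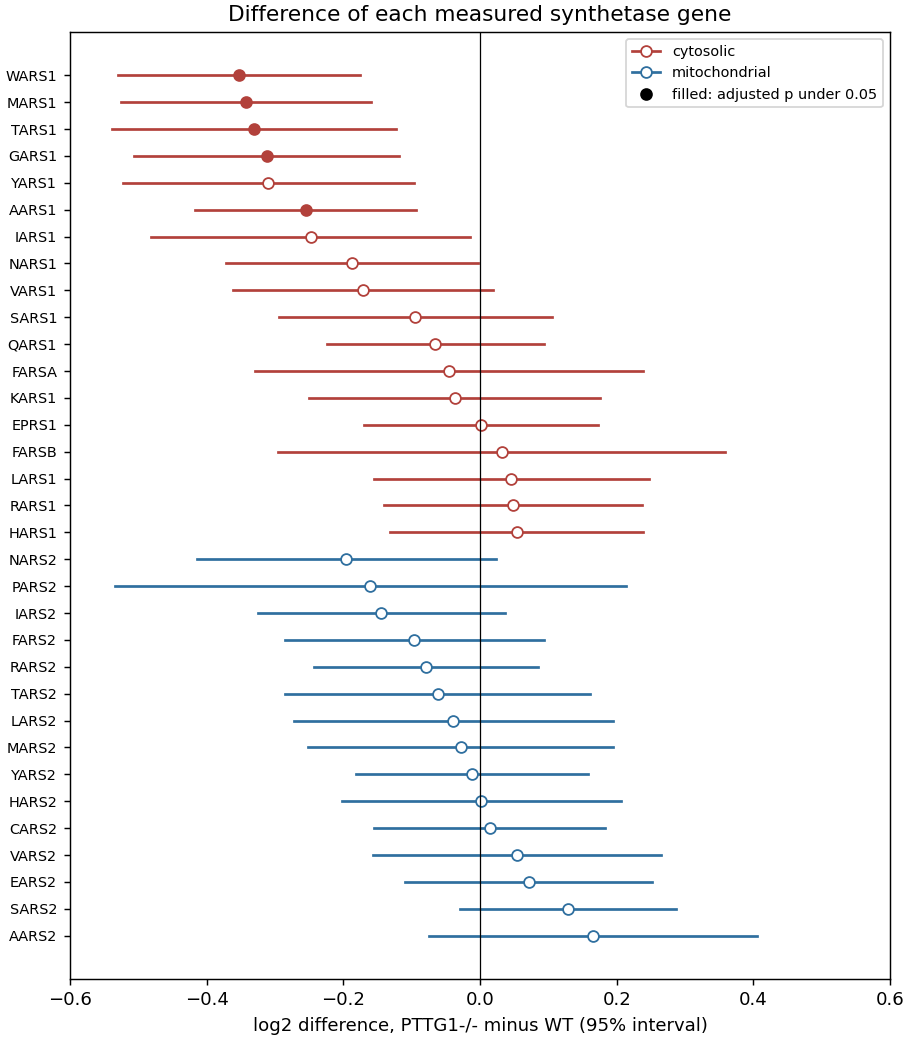
Log2 difference (horizontal axis, PTTG1-/- minus WT) of each of the 33 tested synthetase genes with its 95% interval, cytosolic in red and mitochondrial in blue, filled where the adjusted p was under 0.05. The 5 filled points are all cytosolic and lie between -0.35 and -0.25, and the mitochondrial points lie between -0.20 and 0.17.

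Promoters of the cytosolic genes were read for the motif by which ATF4, paired with a C/EBP protein, is known to bind DNA, because the genes that fell are of a family known to respond to it. The letters searched were TTGCATCA, on both strands, in the 300 bases from 250 before to 50 after each annotated start (RefSeq, GRCh38.p14). Promoters were listed for 33 of the 38 genes, in 45 windows, and not for LARS1, VARS1, YARS1, AARS2 and VARS2. The motif was in 6 of 16 cytosolic genes, in none of 14 mitochondrial genes and in none of 3 scaffold genes. Over all 35116 windows 0.87% held it, and 1.08% of 27305 genes did. The windows of the 6 genes are shown for the place of the motif, which is in capitals with 10 bases on each side, 5′ to 3′ on the strand of the gene, and in NARS1 it runs in the reverse direction.
AARS1, chr16:70289676-70289703, minus strand: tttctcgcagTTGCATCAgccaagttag
CARS1, chr11:3057408-3057435, minus strand: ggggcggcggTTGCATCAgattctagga
IARS1, chr9:92293693-92293720, minus strand: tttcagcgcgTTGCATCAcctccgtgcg
MARS1, chr12:57488054-57488081, plus strand: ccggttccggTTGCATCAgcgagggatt
NARS1, chr18:57621805-57621832, minus strand: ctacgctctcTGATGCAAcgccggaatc
TARS1, chr5:33440957-33440984, plus strand: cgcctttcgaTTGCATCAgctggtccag

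In IARS1, CARS1 and MARS1 the motif began 13, 2 and 4 bases before the annotated start, in TARS1 and NARS1 2 and 14 bases after it, and in AARS1 187 bases before it. The 5 of these genes that were tested were all below 0, with log2 differences from -0.34 in MARS1 to -0.19 in NARS1 and a median of -0.25, and 3 of them passed the test. Of the other 10 tested cytosolic genes with a listed promoter, 2 fell (GARS1 and WARS1), 6 were below 0, and the median was -0.04. When any base was allowed at the third letter (TTNCATCA, which includes the first motif, in 3.62% of all windows), GARS1 and, of the mitochondrial genes, YARS2 were added. The GARS1 window is shown because it differs from the others in that letter, and YARS2 had a log2 difference of -0.01.
GARS1, chr7:30594835-30594862, plus strand: tacgcggcgaTTTCATCAtgctccgagc

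Among the 69 tested genes outside the family whose promoter held TTGCATCA, 18.8% fell and 4.35% rose, with a median log2 difference of -0.13, and among the 8538 tested genes with a listed promoter but without the motif 7.43% fell and 9.44% rose. With TTNCATCA, 12.2% of 230 tested genes outside the family fell and 9.13% rose, with a median of -0.04. Without it, 7.38% of 8375 tested genes fell and 9.41% rose. A match of letters is a description of the sequence, and binding was not measured here.

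Mitochondrial synthetase genes did not pass the test in either direction (0 of 15 by limma, with log2 differences from -0.20 to 0.17 and a median of -0.03). Their standard errors, 0.07 to 0.17 with a median of 0.09, covered nearly the same range as those of the cytosolic genes, 0.07 to 0.15 with a median of 0.09. The mitochondrial genes were dimmer as a list. Their WT means ran from 5.85 in PARS2 to 10.86 in IARS2, against 8.21 in FARSA to 12.61 in AARS1 for cytosolic genes. The part of brightness in the contrast between the lists was not tested. NARS2, the mitochondrial asparaginyl-tRNA synthetase, had the lowest value, with 7.90, 7.86 and 7.76 in WT cells and 7.51, 7.60 and 7.82 in PTTG1-/- cells (log2 difference -0.20, adjusted p = 0.205). Its PTTG1-/- replicate 3 lay within the WT range, and without that array NARS2 passed (log2 difference -0.29, adjusted p = 0.0424). PARS2, the prolyl-tRNA synthetase, was dim and uneven in WT cells, at 6.12, 6.02 and 5.42, and was 5.80, 5.68 and 5.60 in PTTG1-/- cells. The difference was -0.16 (adjusted p = 0.556). Without WT replicate 3 it was -0.38 (adjusted p = 0.0441).

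Of 15 mitochondrial genes 1, RARS2, had every PTTG1-/- array below every WT array, and 1, SARS2, had the reverse. Over all genes 16.7% and 19.5% did. RARS2, the mitochondrial arginyl-tRNA synthetase, was at 8.94 to 9.01 in WT cells and 8.84 to 8.93 in PTTG1-/- cells (log2 difference -0.08, adjusted p = 0.499). SARS2, the seryl-tRNA synthetase, was the one gene of the family with every PTTG1-/- array above every WT array, at 10.22, 10.23 and 10.22 against 10.10, 10.12 and 10.06. Its log2 difference was 0.13 (95% interval -0.03 to 0.29, adjusted p = 0.247), and it passed with the methods' t-test (adjusted p = 0.0344). AARS2, the alanyl-tRNA synthetase, had the highest value of the family, with 6.77, 6.59 and 6.83 in WT cells and 6.80, 7.09 and 6.80 in PTTG1-/- cells, so the lines overlapped (log2 difference 0.17, adjusted p = 0.328). IARS2, for isoleucine, differed by -0.14 on the log2 scale (adjusted p = 0.255). The remaining 9 mitochondrial genes lay between -0.10 and 0.07. For EARS2, the glutamyl-tRNA synthetase, the difference was 0.07 (95% interval -0.11 to 0.25), for YARS2 -0.01 (-0.18 to 0.16) and for CARS2 0.01 (-0.16 to 0.18). Falls as large as that of WARS1 are outside these 3 intervals, while NARS2 and PARS2 have intervals that reach -0.41 and -0.53.

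**Figure D3:**
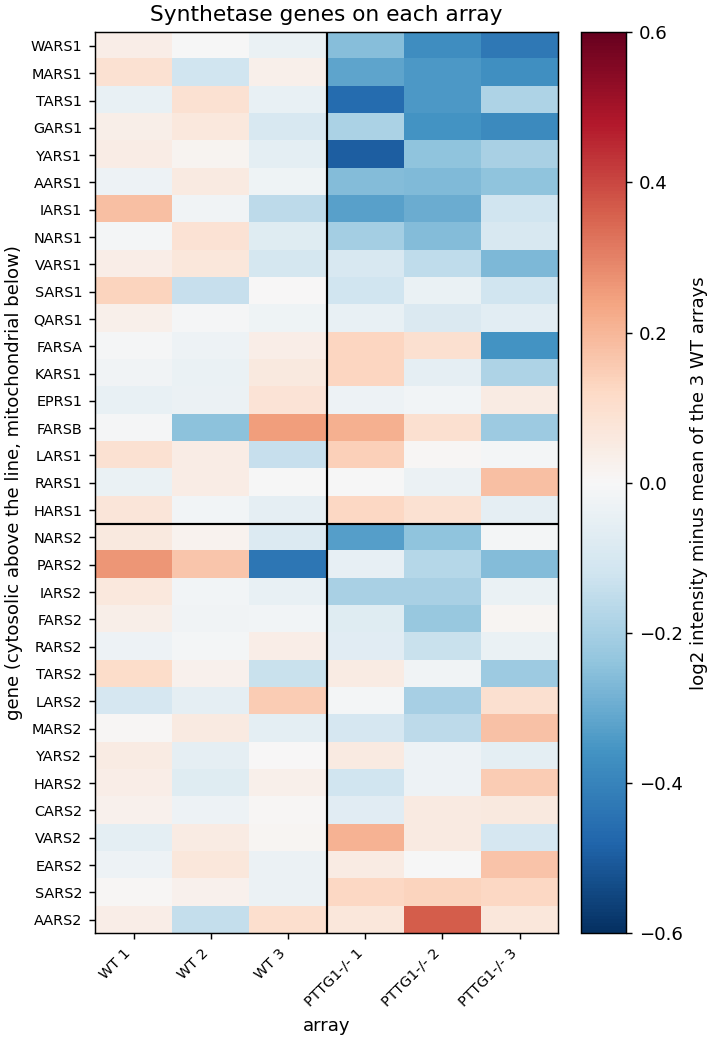
Log2 intensity of the 33 synthetase genes (rows, cytosolic above the line and mitochondrial below it, each ordered by difference) on the 6 arrays (columns), minus the mean of the 3 WT arrays, from blue (lower) to red (higher). The upper rows from WARS1 to NARS1 are blue on all 3 PTTG1-/- arrays, and the mitochondrial rows are mixed. FARSA on PTTG1-/- replicate 3 and PARS2 on WT replicate 3 are single dark cells at -0.36 and -0.44.

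On each PTTG1-/- array the median of the cytosolic genes lay lower than that of the mitochondrial ones. As a median over the 18 cytosolic genes, the deviation from the WT mean was -0.11, -0.12 and -0.19 on PTTG1-/- replicate 1, 2 and 3, and between -0.03 and 0.03 on the WT arrays. Over the 15 mitochondrial genes it was -0.05, -0.03 and 0.01 on the PTTG1-/- arrays and between -0.02 and 0.04 on the WT arrays. The lists lay furthest apart on PTTG1-/- replicate 3. Without that array the median log2 difference was -0.10 over cytosolic and -0.07 over mitochondrial genes. The median over all genes stayed between -0.01 and 0.01 on every array. On the PTTG1-/- arrays 13, 14 and 16 of the 18 cytosolic genes were below their WT mean, and 9, 11 and 7 of the 15 mitochondrial ones. These medians describe the lists, and the difference between the lists was not tested as a whole.

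Enzymes that charge the same amino acid could be compared in 13 pairs, in which FARSA and FARSB share FARS2 as their partner. In 7 pairs the cytosolic gene had the lower difference and in 6 the mitochondrial gene, with a median gap of -0.10. The pairs with the widest gaps were AARS1 and AARS2 (-0.42, SE 0.14), MARS1 and MARS2 (-0.31, SE 0.14), YARS1 and YARS2 (-0.30, SE 0.13) and TARS1 and TARS2 (-0.27, SE 0.18). The gap is the change of the ratio of the 2 genes within an array, from WT to PTTG1-/- cells. For alanine the ratio, relative to its WT mean, was -0.07, 0.20 and -0.12 on the WT arrays and -0.33, -0.63 and -0.31 on the PTTG1-/- arrays, without overlap. For threonine it was -0.16, 0.07 and 0.09 against -0.51, -0.32 and 0.03, so PTTG1-/- replicate 3 overlapped the WT range. In VARS1 and VARS2 (-0.23) and SARS1 and SARS2 (-0.22) the ratio was also lower on every PTTG1-/- array, as it was for 5 of the 13 pairs, and in RARS1 and RARS2 it was higher on every PTTG1-/- array (0.13, SE 0.06). Two-sided exact permutation p was 0.1 for these 6 pairs, the smallest the design allows, and 0.2 to 1.0 for the others, so no pair could pass a threshold of 0.05. How often the ratio of other gene pairs separates the lines was not computed, so these counts have no background here. NARS1 and NARS2 had nearly equal differences (gap 0.01, SE 0.07), both below 0. HARS1 and HARS2, which are neighbouring genes, had differences of 0.05 and 0.00.

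**Figure D4:**
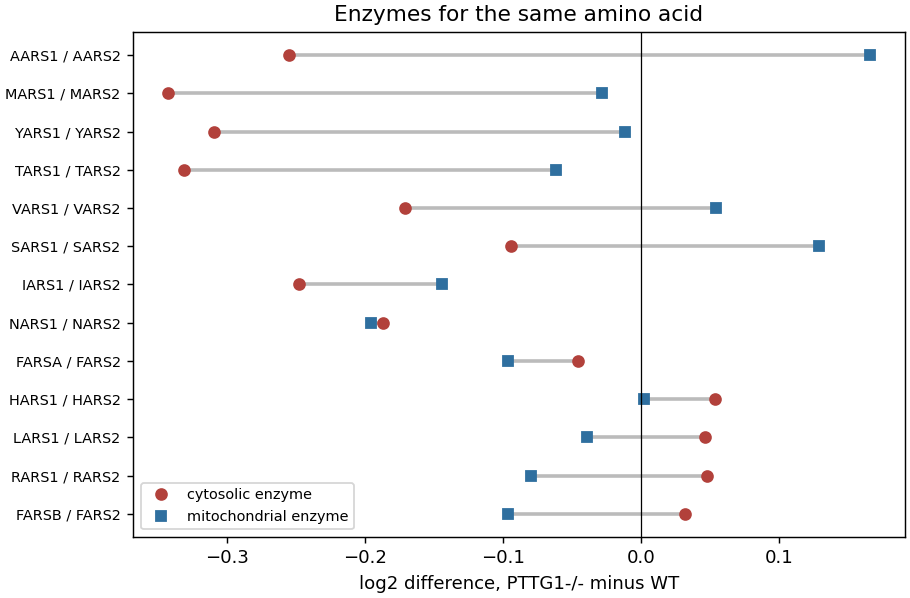
Log2 difference (horizontal axis, PTTG1-/- minus WT) of the cytosolic (red circles) and mitochondrial (blue squares) enzymes for the same amino acid in 13 pairs, ordered by the gap between them. The gap is widest for AARS1 and AARS2, at -0.25 and 0.17, and 6 pairs at the bottom have the cytosolic enzyme on the right.

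Beside the synthetases, other genes known to rise when amino acids are short fell in greater numbers and by more. In a list of 33 such genes 28 were tested, of which 20 fell (71.4%, against 7.79% of all genes), 1 rose (9.58% of all genes did) and 7 did not pass, with a median log2 difference of -0.47. The log2 difference was -1.403 for CHAC1, which degrades glutathione, -1.3998 for DDIT3, which encodes the transcription factor CHOP, and -1.05 for STC2, a secreted glycoprotein (adjusted p at most 5.07e-05). DDIT4, TRIB3 and CEBPB of this list were chosen by the study for qPCR on these cells, so they are not independent evidence, and without them 17 of 25 fell. The list overlaps one whose fall in these arrays was known when it was drawn up. ATF4 itself, at 13.46, 13.47 and 13.55 in WT cells, had a log2 difference of -0.22 that did not pass (adjusted p = 0.0927). ASNS, which makes asparagine, had a difference of -0.13 (adjusted p = 0.297), and ALDH18A1, an enzyme of proline synthesis, was the gene that rose, by 0.30 (adjusted p = 0.0231). Each of the synthetase falls was smaller in size than the median of this list. Of 8 tested genes of the GCN2 pathway and its relatives 1 fell (12.5%, against 7.79% of all genes). It was PPP1R15A, which directs a phosphatase to eIF2α and is known to be raised by stress (log2 difference -1.28, adjusted p = 2.4e-05). EIF2AK4 had a difference of 0.36 (adjusted p = 0.0622).

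Of 36 listed genes of tRNA processing, editing and modification 30 were tested, of which 2 fell (6.67%, against 7.79% of all genes) and none rose. TSEN15, a subunit of the tRNA splicing endonuclease, fell by 0.41 (adjusted p = 0.0140). TRNT1, which adds the CCA end to tRNA, had the lowest value of the list, with a log2 difference of -0.44 that did not pass (adjusted p = 0.0910), and its PTTG1-/- replicate 3 overlapped the WT range. GATC, a subunit of the amidotransferase that completes glutaminyl-tRNA in mitochondria from the product of EARS2, fell by 0.33 (adjusted p = 0.0426), and GATB of the same enzyme had a log2 difference of -0.29 (adjusted p = 0.0687). Among 9 tested elongation factors that carry or place tRNA none passed by limma. At an unadjusted p under 0.05, 2 were higher and none lower, where 16.9% and 14.7% of all genes were. EEF1D, an exchange factor for the carrier of charged tRNA, had a difference of 0.27 (adjusted p = 0.0544).

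**Figure D5:**
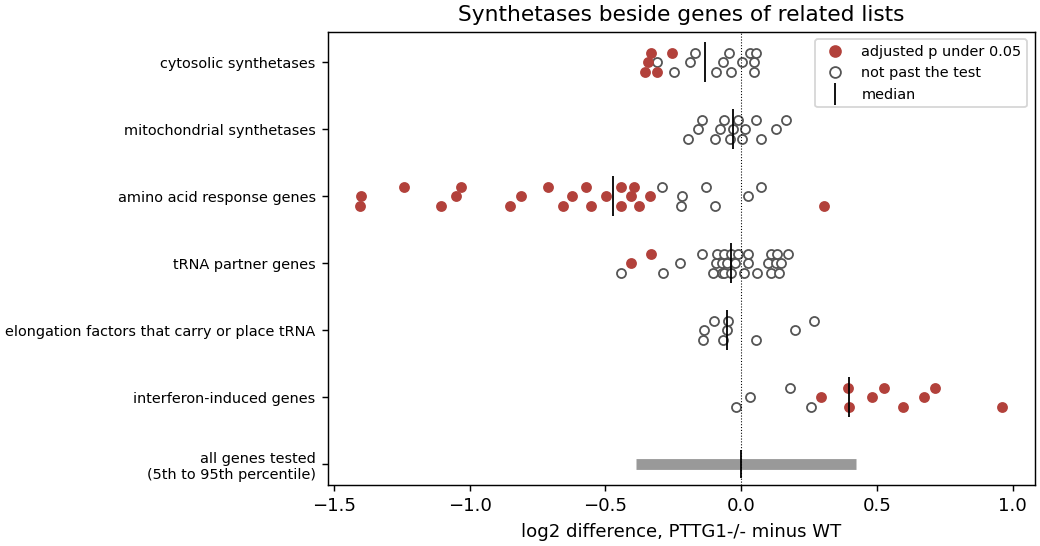
Log2 difference (horizontal axis, PTTG1-/- minus WT) of each tested gene in 6 lists, red where the adjusted p was under 0.05 and open where not, with the median of each list as a bar, above the range from a low to a high percentile, as marked on the axis, of all 10642 genes (-0.39 to 0.42). The medians are -0.13 for cytosolic and -0.03 for mitochondrial synthetases, -0.47 for amino acid response genes and 0.40 for interferon-induced genes.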

How the data were processed

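HCT116 RNA from 3 PTTG1+/+ and 3 PTTG1-/- samples was analysed on Illumina HumanHT-12 V4 beadchips. The authors deposited unnormalized probe intensities on a linear scale, beside a fraction headed as a detection p that rises with intensity, and the detection p was taken as 1 minus this deposited fraction. The authors also deposited processed log2 values, with the same median of 6.07 on every array; the methods name Partek and a standard Illumina protocol, and the normalization is not given in the sources used here. The 12 lines without a probe name were left out. In R 4.3.3, limma 3.58.1 corrected background (neqc, offset 16) and normalized by quantiles. Probes with a detection p under 0.05 on at least 3 of 6 arrays were kept (17357 of 47310). Probes were named by the platform annotation (30107 with 1 gene, 8 with several, 17195 not listed) and symbols updated to GRCh38.p14 through gene identifiers (30068), accessions (18) or kept (21). The probe with the highest mean stood for a gene. PTTG1-/- was compared with PTTG1+/+ by lmFit and eBayes without a block, with Benjamini-Hochberg adjustment over all 10642 genes. The script was tested on simulated data. Array number limits the precision.

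Members and lists were chosen with earlier results of these data known. Every member was accounted for. By rule, members past the threshold have values for each array, and other lists name genes among their 4 smallest p. YARS1, IARS1, NARS1, QARS1, VARS1, FARSA, FARSB, NARS2, PARS2, RARS2, SARS2, AARS2, ATF4, ASNS and ALDH18A1 were given more room after their values were seen. Alternatives were other background corrections, normalizations, filters, probe choices and variance models, the replicate block, the methods' t-test, a stricter threshold and each array left out. The list without qPCR genes was added after the data were seen. Same-numbered samples did not deviate together (correlations -0.07, -0.00 and -0.12), so the numbers were not used as pairs.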

Additional observations from a re-analysis of the deposited data

How the results depend on the processing

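The 5 cytosolic genes that fell kept their direction under all 19 alternatives, but the number of calls did not. The count of cytosolic genes that fell, 5 in the report, was 0 with no normalization between arrays, 1 with median scaling, 2 in a fit to single probes, 2 with the replicate block, 2 with the methods' t-test, 0 at an adjusted p under 0.01, and 0 to 5 with 1 array left out. It was 4 with no filter and 5 or 6 under the other 6 alternatives. Of mitochondrial genes, 1 rose with the methods' t-test (SARS2), and 0 to 1 fell with an array left out (PARS2 without WT replicate 3, NARS2 without PTTG1-/- replicate 3). The range of the adjusted p was 0.00232 to 0.0595 for WARS1, 0.00327 to 0.104 for MARS1, 0.00639 to 0.164 for TARS1, 0.00529 to 0.133 for GARS1 and 0.00494 to 0.203 for AARS1. The median of cytosolic genes stayed between -0.16 and -0.10, and that of mitochondrial genes, -0.03, was -0.0017 with no normalization and ranged, with an array left out, from -0.0742 (without PTTG1-/- replicate 3) to -0.0024 (without PTTG1-/- replicate 2). Over all genes, 1020 rose and 829 fell. These counts were 663 and 381 with no normalization, 736 and 474 with median scaling, 523 and 413 with the methods' t-test, 745 and 601 with the replicate block, and 427 and 315 at 0.01, and ranged over 575 to 1161 and 439 to 1022 with an array left out. Both highest counts were without PTTG1-/- replicate 3. The cause of these moves was not tested. Same-numbered arrays shared only a number, and the replicate block lost AARS1, GARS1 and TARS1.

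In genes without a call, 13 members near 0 changed sign, 26 times when counted per gene and alternative, none of them with a call. YARS2 was 0.0046 with no normalization and EPRS1 -0.0074 with median scaling. With an array left out the log2 differences ranged over YARS2 -0.0438 to 0.0134, EPRS1 -0.0229 to 0.0417, FARSB -0.0908 to 0.1568, CARS2 -0.0082 to 0.0558, HARS2 -0.0742 to 0.0622, LARS1 -0.0236 to 0.0926, LARS2 -0.1069 to 0.0410, MARS2 -0.1296 to 0.0361, VARS2 -0.0229 to 0.1318, FARSA -0.1325 to 0.1117, KARS1 -0.1208 to 0.0376, RARS1 -0.0187 to 0.0905 and TARS2 -0.1293 to 0.0149. Differences of this size are below what 3 arrays per line resolve, since standard errors were 0.07 or more.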
